A study of Mus musculus with 82 samples.

Results

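This account concerns naive OT-II cells, which are CD4 T cells with a transgenic receptor for a peptide of ovalbumin, and asks how their RNA differed 4 days after pGal-OVA from that after saline. pGal-OVA is ovalbumin (OVA) carrying a synthetic glycosylation. The libraries were chosen by their labels: prophylactic OT-II libraries labelled pGal (5 libraries, 3 in batch 1 and 2 in batch 2) and saline (5 libraries, 3 and 2), which is 10 of the 82 libraries in the series. Each library was made from cells of 3 C57BL/6 mice that were pooled after OT-I and OT-II cells had been transferred together on day 0, and antigen or saline followed 1 day later. Spleen and lymph nodes were pooled, and the cells were sorted by fluorescence into Trizol. Complementary DNA was made from polyadenylated RNA with SmartSeq v4 chemistry and read as pairs of 150 bases. All 10 libraries therefore share the transfer of both cell types, the sort and the single collection time, and the recipients kept their own T and B cells. The sources used here do not give the age of the mice. The amount of pGal-OVA is stated as 5 µg in the series' design and as the molar antigen equivalent of 5 µg OVA in the treatment protocol, so the antigen dose is known only within that ambiguity. "Naive" means here that the mice had not been immunised before treatment.

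A CD4 T cell that meets its antigen on a presenting cell with full costimulation divides, makes cytokines and takes on a helper program. The same antigen met without costimulation, as in much antigen taken up from the circulation, is known to leave CD4 cells alive but poorly responsive, a state called anergy, or to delete them or turn them to regulatory programs. Anergy is known to follow calcium and NFAT signalling that is not matched by AP-1, and anergic CD4 cells are known for the surface proteins FR4 (Izumo1r) and neuropilin-1 (Nrp1) and for ubiquitin ligases and phosphatases that dampen receptor signalling.

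Levels below are normalised counts per 1 M counts of the library (CPM), given in the order batch 1 libraries 1, 2 and 3, then batch 2 libraries 1 and 2. Changes are log2 fold changes of pGal against saline from a fit with a batch term, and a gene is said to have risen or fallen when its Benjamini-Hochberg adjusted p from edgeR's quasi-likelihood test was under 0.05. The libraries held 21.2 to 51.4 M estimated counts in the pGal group and 32.9 to 57.4 M in the saline group. Cd4 stood at 511 to 1130 CPM in the pGal libraries and at 579 to 810 CPM in the saline libraries, and Cd8a was at or under 7.46 CPM in 8 of the 10. The exceptions carried transcripts of other cells. The pGal library 3 of batch 1 had 1050 CPM of the B cell gene Cd79a and 87.3 CPM of Cd8a, and the saline library 1 of batch 2 had 168 CPM of Cd79a and 18.4 CPM of Cd8a, while the other 8 libraries had at most 40.0 CPM of Cd79a. Summed over 20 B cell markers the pGal libraries spanned 317 to 18500 CPM (median 504) and the saline libraries 439 to 3610 CPM (median 619), with none of the markers at 0 in all libraries. None of 8 marker lists passed the test for a difference in summed level between pGal and saline (exact permutation within batches, lowest adjusted p = 0.333). With 120 arrangements and 8 lists, 1 list alone could not reach an adjusted p under 0.05. The test therefore cannot show that RNA of other cells was balanced between the groups. Many results that could rest on these B cell-rich libraries are given also without them. That fit also leaves out the B cell-rich OVA library 2 of batch 2. In bulk RNA fewer cells of a kind and less RNA per cell cannot be told apart, and the p-values measure the spread between pools of mice.

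Of 14142 genes tested, 902 rose (6.38%) and 755 fell (5.34%) after pGal-OVA, together 1657 (11.7%). The counts from gene lists below are to be read against these shares. By at least 2-fold, 364 genes rose (2.57%) and 189 fell (1.34%), and by at least 4-fold 134 rose (0.948%) and 46 fell (0.325%). The median log2 change over all genes tested was 0.04, and 5% of genes lay below -0.92 and 5% above 1.65. The direction with more calls turned in some fits: with library size alone 817 genes were higher and 948 lower, and without the saline library 3 of batch 1 the numbers were 584 and 597. In 1108 of the 1657 called genes the 5 pGal values and the 5 saline values did not overlap, as was so in 10.2% of all genes tested (5.61% higher and 4.61% lower after pGal-OVA). In 1656 of the 1657 the change had the same direction in both batches. These genes were called from both batches fitted together, so that agreement was largely fixed in advance and is not separate support. Without the B cell-rich libraries 2069 of 14044 genes were called (14.7%, with 7.85% higher and 6.89% lower), of which 1421 were among the 1657, and each of the 1657 kept its sign. That fit reuses most of the same libraries, so the kept signs are not separate support either. Batch 1 alone (3 against 3) called 1744 genes, of which 815 were higher and 929 lower, whereas batch 2 alone (2 against 2) called 0 at the adjusted threshold and had 1801 genes with an unadjusted p under 0.05.

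**Figure D1:**
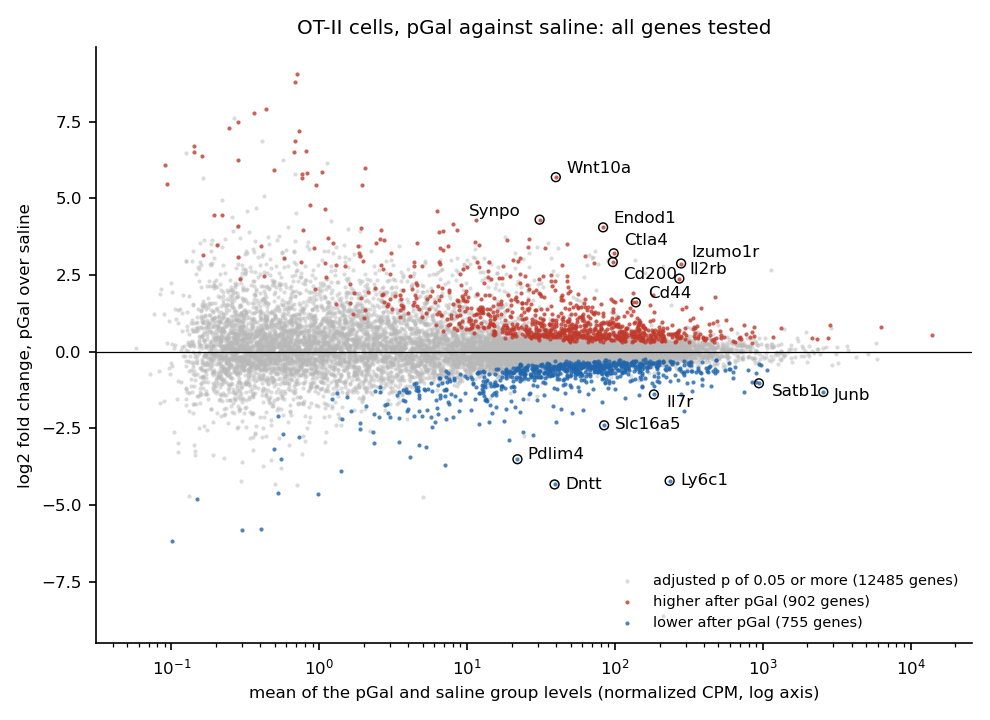
Change of every gene tested in OT-II cells after pGal-OVA against saline: the x axis is the mean of the pGal and saline group levels (normalised CPM, log scale), the y axis the log2 fold change, and coloured points are the 902 genes that rose and the 755 that fell. The named genes sit at the edges of the cloud, with Wnt10a at 5.69 and Dntt at -4.33.

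Wnt10a, which encodes a secreted Wnt ligand (chr1:74791516-74804179, plus strand, GRCm38), had the highest log2 change of the genes that rose and reached at least 10 CPM. It stood at 56.0, 48.9, 27.0, 151 and 108 CPM after pGal-OVA and at 1.06, 0.825, 1.13, 3.19 and 0.860 CPM after saline. Every pGal library was thus above every saline library, although the pGal libraries themselves spread widely, and the fitted difference was 51.7-fold (log2 change 5.69, SE 0.50, adjusted p = 2.4e-05). Endod1, an endonuclease-domain protein on chromosome 9, was measured with less spread at 155, 143, 88.6, 219 and 179 CPM after pGal-OVA and 12.3, 6.69, 8.26, 10.0 and 7.81 CPM after saline. The lowest pGal value came from the B cell-rich library and was still above all saline values (16.6-fold, log2 change 4.05, SE 0.28, adjusted p = 5.38e-06).

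Synpo encodes synaptopodin, an actin-binding protein. It stood at 58.2, 82.5, 29.7, 56.7 and 66.6 CPM against 3.45, 1.92, 1.57, 4.28 and 4.09 CPM. Its groups were far apart in both batches, and it rose 19.8-fold (log2 change 4.31, adjusted p = 3.36e-05). Tns1, a tensin that links integrins to actin, rose from 7.67 ± 2.18 to 86.6 ± 24.7 CPM (SD, n = 5 each), or 11.3-fold. Smtn, the smoothelin of contractile filaments, rose 12.6-fold with pGal values of 9.65 to 71.0 CPM (log2 change 3.65, or 4.58 without the saline library 1 of batch 1). Its batch 1 change alone did not pass the threshold.

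Gpr55, a receptor for lysophospholipids, rose from 0.308 to 1.79 CPM over the saline libraries to 11.1 to 33.0 CPM over the pGal libraries (log2 change 4.28, adjusted p = 0.000135). Chst2, a sulfotransferase that modifies N-acetylglucosamine on glycans, rose from 3.81 ± 1.03 to 48.7 ± 14.2 CPM (log2 change 3.67, adjusted p = 5.38e-06). Nrn1, neuritin, a small membrane-anchored protein first described in neurons, rose from 1.96 ± 0.571 to 22.0 ± 5.42 CPM (log2 change 3.49, adjusted p = 1.05e-05). Each of these had its groups apart without overlap. Slc9b2, a sodium-proton exchanger, rose 12.0-fold, Mpp2, a membrane scaffold protein, 15.5-fold, and Grhl1, a transcription factor of the grainyhead family, 10.9-fold. Without the saline library 2 of batch 2 the log2 change of Slc9b2 was 4.41 in place of 3.59, and without the saline library 3 of batch 1 that of Gpr55 was 4.97. Tnfsf4, which encodes OX40 ligand, was at 7.95, 7.47, 3.14, 29.1 and 13.0 CPM after pGal-OVA and 0.154, 0.0674, 0.850, 3.24 and 0 CPM after saline. Here the groups overlapped, through the saline library 1 of batch 2, and the call (log2 change 3.89, SE 1.07, adjusted p = 0.0322) was lost without any 1 of 6 libraries, with adjusted p from 0.0163 to 0.0784 over the 10 leave-outs. Those libraries were pGal 1 and 2 and saline 1, 2 and 3 of batch 1 and pGal 1 of batch 2. Without the saline library 1 of batch 2 alone the log2 change of Tnfsf4 was 5.33, and without the B cell-rich libraries it was 5.48 (adjusted p = 0.00207).

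Gm3739, Gm2237 and Gm3636, 3 predicted genes of a near-identical family on chromosome 14, also ranked among the 15 highest. Their log2 changes were 4.60, 4.15 and 3.98, but reads from such copies can be divided among them by the estimate, so the share of each is uncertain. The genes with the smallest p among those that rose were not those with the largest folds. Gng2, a G protein gamma subunit, stood at 75.9, 65.1, 64.6, 91.2 and 101 CPM after pGal-OVA and at 20.0, 19.7, 20.0, 20.7 and 17.8 CPM after saline. The saline libraries lay close together, and the change was 3.97-fold (log2 change 1.99, SE 0.13, adjusted p = 3.75e-06). Lrmp, a membrane protein of the endoplasmic reticulum, rose 2.88-fold (log2 change 1.53, SE 0.10, adjusted p = 3.75e-06). Prr13, a proline-rich protein, rose 3.64-fold and Zfp821, a zinc finger protein, 6.90-fold.

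**Figure D2:**
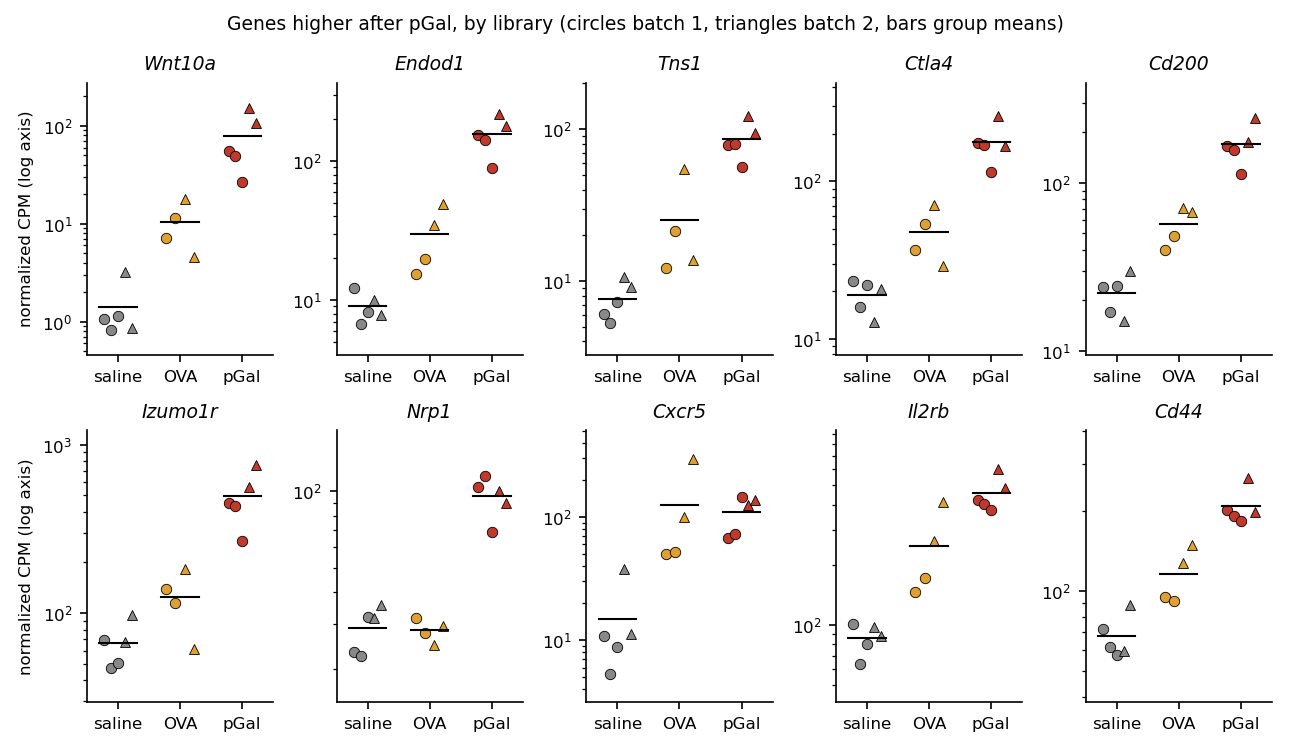
Levels of raised genes in each pGal, OVA and saline library of OT-II cells (log-scaled CPM axis; 1 point per library, circles for batch 1, triangles for batch 2, bars at the group means). The pGal points sit above the saline points in each panel, for example Endod1 at 88.6 to 219 CPM against 6.69 to 12.3 CPM.

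Among the genes that fell and had at least 10 CPM in the saline group, Dntt had the lowest log2 change. It encodes terminal deoxynucleotidyl transferase, which adds untemplated nucleotides to receptor gene joints in the thymus and whose RNA persists in recently formed T cells. Dntt stood at 3.88, 2.72, 2.36, 3.33 and 6.00 CPM after pGal-OVA and at 76.9, 79.0, 69.2, 77.6 and 68.9 CPM after saline (20.1-fold lower, log2 change -4.33, SE 0.42, adjusted p = 4.9e-05). All saline libraries lay in a narrow band and no pGal library came near it. Ly6c1, a surface protein anchored by a lipid, was at 18.3, 12.8, 21.2, 27.0 and 39.4 CPM against 476, 435, 464, 316 and 529 CPM. It too was far below saline in every pGal library (18.6-fold lower, log2 change -4.21, SE 0.45, adjusted p = 0.000123). Pdlim4, an actin-associated protein with PDZ and LIM domains, was at 2.24, 4.57, 6.39, 2.14 and 2.92 CPM against 47.4, 37.2, 42.7, 32.8 and 40.3 CPM, again with a wide gap between the groups (11.4-fold lower, log2 change -3.51, adjusted p = 2.4e-05).

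Ccr9, the receptor for the chemokine CCL25 that directs cells to the small intestine and thymus, stood at 4.16, 3.46, 19.4, 2.82 and 4.93 CPM after pGal-OVA and 30.6, 45.2, 48.7, 40.2 and 39.0 CPM after saline. The B cell-rich pGal library, the third value, was the highest of its group by far. The log2 change of -2.61 (adjusted p = 0.0028) became -3.39 without the B cell-rich libraries and -3.41 without that pGal library alone. Prdm1, which encodes the repressor Blimp-1, had the same outlying library, at 1.78, 1.68, 7.09, 1.83 and 2.63 CPM against 13.6, 14.5, 15.2, 12.5 and 9.83 CPM. It fell 4.40-fold (log2 change -2.14, adjusted p = 0.0109). Both missed the threshold in batch 1 alone, which holds that library.

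Myo6, an unconventional myosin motor, fell 7.31-fold and Enpp4, an ectonucleotide phosphodiesterase, 6.63-fold. Slc16a5, of the monocarboxylate transporter family, fell from 142 ± 20.1 to 26.7 ± 7.95 CPM. Ampd1 (AMP deaminase) fell 5.18-fold, Ggt5 (a gamma-glutamyltransferase) 4.87-fold, Rgs11 (a regulator of G protein signalling) 4.95-fold, Kcnh3 (a potassium channel) 4.62-fold, Sorcs2 (a sorting receptor) 4.85-fold and Gtf2ird1 (a transcription factor) 4.74-fold. In each of these the groups did not overlap. Olfr545, an olfactory receptor gene, was called but stood at 48.1, 7.09, 10.1, 0.839 and 1.78 CPM after saline, so that 1 library carried most of the saline level. Without it the log2 change was -2.56, and without saline 1 or 2 of batch 2 it was -4.33 or -4.28. Its call (log2 change -3.68, adjusted p = 0.036) was lost without any 1 of 6 libraries (pGal 1, 2 and 3 and saline 1 and 3 of batch 1, and pGal 1 of batch 2), with adjusted p from 0.0173 to 0.115.

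**Figure D3:**
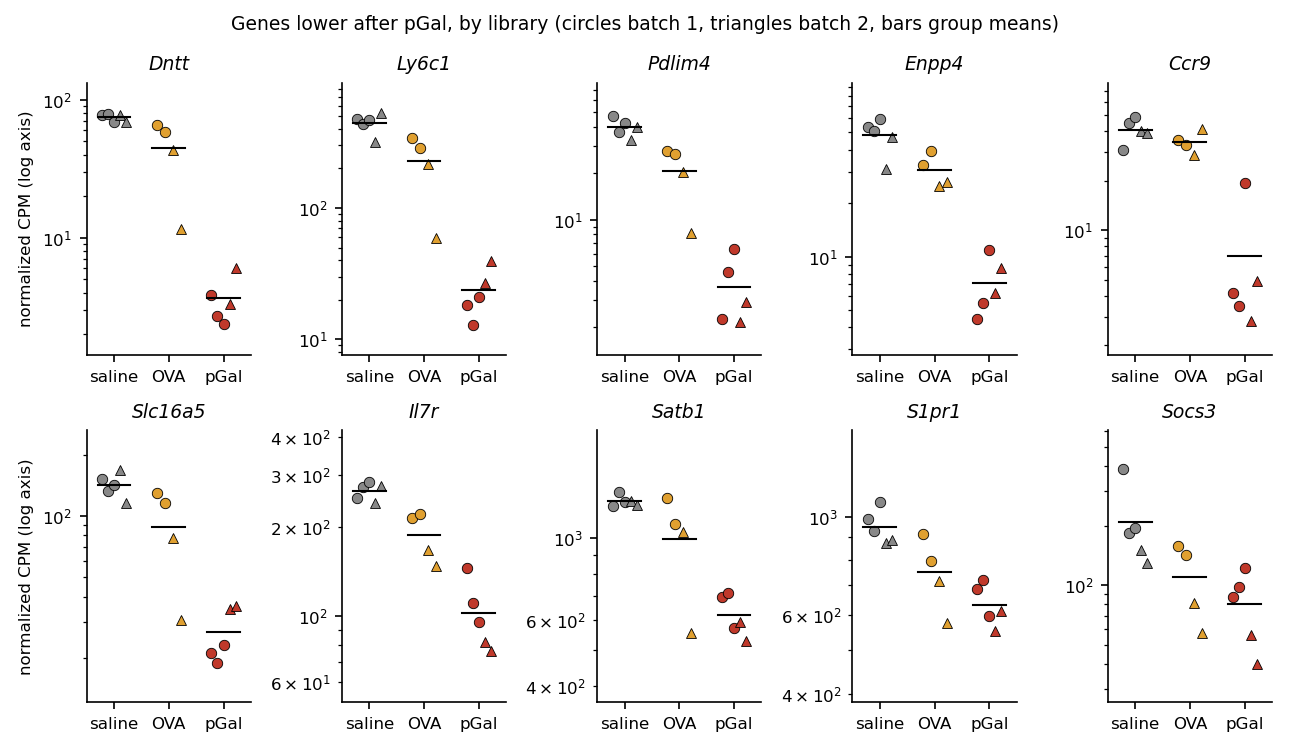
Levels of lowered genes in each pGal, OVA and saline library of OT-II cells (log-scaled CPM axis; 1 point per library, circles for batch 1, triangles for batch 2, bars at the group means). The pGal points sit below the saline points in each panel, with Dntt at 2.36 to 6.00 CPM against 68.9 to 79.0 CPM, and the OVA points lie mostly between them.

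The 250 bases before the RefSeq start (GRCm38.p6) of Ctla4 and Cd200, which rose, and of Dntt and Pdlim4, which fell, are printed because these genes moved far and in opposite directions. Capitals mark matches to GGAAA, the core bound by NFAT, on either strand.
Ctla4, chr1:60908775-60909024, plus strand: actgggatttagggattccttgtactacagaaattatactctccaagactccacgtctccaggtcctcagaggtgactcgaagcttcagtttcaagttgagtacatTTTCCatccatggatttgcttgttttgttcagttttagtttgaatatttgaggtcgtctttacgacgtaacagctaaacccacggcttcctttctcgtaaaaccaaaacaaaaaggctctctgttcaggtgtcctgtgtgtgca
Cd200, chr16:45409054-45409303, minus strand: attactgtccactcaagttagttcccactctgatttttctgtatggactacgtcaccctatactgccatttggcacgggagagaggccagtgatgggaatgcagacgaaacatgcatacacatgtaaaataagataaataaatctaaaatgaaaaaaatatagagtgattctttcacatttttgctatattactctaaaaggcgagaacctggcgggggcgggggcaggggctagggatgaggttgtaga
Dntt, chr19:41029025-41029274, plus strand: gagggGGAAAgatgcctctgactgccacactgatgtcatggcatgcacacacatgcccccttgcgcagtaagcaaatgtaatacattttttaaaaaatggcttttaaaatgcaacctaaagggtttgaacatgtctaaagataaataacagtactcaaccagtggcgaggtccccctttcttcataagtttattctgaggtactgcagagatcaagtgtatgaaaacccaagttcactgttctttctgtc
Pdlim4, chr11:54069018-54069267, minus strand: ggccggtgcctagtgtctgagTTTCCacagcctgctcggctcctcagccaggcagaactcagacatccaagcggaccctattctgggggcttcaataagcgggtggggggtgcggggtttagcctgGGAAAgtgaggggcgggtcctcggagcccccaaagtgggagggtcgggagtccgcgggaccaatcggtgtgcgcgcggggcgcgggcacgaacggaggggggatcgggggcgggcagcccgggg
GGAAA occurred 1 time in the windows of Ctla4 and Dntt, 2 times in that of Pdlim4 and 0 times in that of Cd200. The RefSeq start of Ctla4 lies 22025 bases inside the GENCODE gene, so its window depends on the transcript chosen. Neither TGANTCA, the AP-1 element, nor GCGTGGGCG, the element of EGR factors, occurred in any of the 4. Over the 11062 tested genes with a window, GGAAA was present in 54.5%, against 53.8% of 703 genes that rose and 54.7% of 585 that fell. TGANTCA was present in 4.58%, 4.27% and 4.1% and GCGTGGGCG in 0.976%, 0.996% and 0.342%, in the same order. These 3 short motifs were thus about as frequent before raised and lowered genes as before all genes, except that GCGTGGGCG, present in 7 windows of raised and 2 of lowered genes, is too rare to compare.

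Inhibitory receptors restrain T cell activation at the surface. Of 18 such receptors and ligands tested, 5 rose and 0 fell, with a median log2 change of 0.64 (0.04 over all genes). In the fit without the B cell-rich libraries 7 rose and 1 fell, with a median of 0.406. Ctla4, which competes with CD28 for its ligands, stood at 176, 169, 114, 259 and 168 CPM after pGal-OVA and 23.2, 16.0, 22.1, 12.8 and 20.6 CPM after saline. The lowest pGal library was still several times the highest saline library (log2 change 3.21, SE 0.28, adjusted p = 2.4e-05). Cd200 encodes a surface protein whose receptor restrains myeloid cells. It was at 167, 157, 113, 175 and 245 CPM against 24.0, 17.0, 24.2, 15.1 and 29.8 CPM (log2 change 2.92, SE 0.21, adjusted p = 5.82e-06). Lag3, a receptor for MHC class II, rose at a low level, from 0.461 to 1.24 CPM to 2.45 to 7.75 CPM (log2 change 2.54, adjusted p = 0.000613). Pdcd1, which encodes PD-1, was at 53.5, 52.6, 37.1, 96.0 and 95.6 CPM against 29.3, 14.2, 12.5, 12.2 and 30.1 CPM and rose (log2 change 1.69, adjusted p = 0.00293), with a change of 1.35 in batch 1 and 2.18 in batch 2. Btla, a receptor for HVEM, was called (log2 change 0.92, adjusted p = 0.0348) but lost the call in 9 of the 10 fits that left out 1 library, all but the one without pGal 2 of batch 2 (adjusted p from 0.0128 to 0.0849). Tigit, a receptor for CD155, had a log2 change of -1.36 (adjusted p = 0.0883) with pGal values of 0.748, 1.29, 2.62, 1.03 and 0.757 CPM and saline values of 4.51, 2.39, 2.49, 1.06 and 5.81 CPM. Without the B cell-rich libraries its change was -2.01 (adjusted p = 0.00721), a fall. Havcr2, which encodes TIM-3, was near the detection limit at 0 to 6.14 CPM after pGal-OVA and 0 to 2.45 CPM after saline.

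Genes known from anergic CD4 cells were next. Of 20 tested, 10 rose and 0 fell (median log2 change 0.61), and 11 rose and 1 fell without the B cell-rich libraries. Izumo1r (FR4) stood at 451, 431, 267, 559 and 758 CPM after pGal-OVA and 69.3, 47.5, 50.9, 67.2 and 97.0 CPM after saline. The groups were well apart (7.34-fold, log2 change 2.88, SE 0.29, adjusted p = 7.29e-05). Nrp1, a co-receptor for semaphorins, was at 104, 114, 68.9, 99.6 and 89.5 CPM against 23.2, 22.4, 32.0, 31.7 and 35.6 CPM (3.30-fold, log2 change 1.72, SE 0.16, adjusted p = 3.68e-05). Nt5e (CD73), the ectoenzyme often used with FR4 to mark anergic cells, was at 21.6 to 38.7 CPM against 13.4 to 25.1 CPM and did not pass (log2 change 0.68, adjusted p = 0.24). Ubash3b, a phosphatase that dampens receptor signalling, rose 2.36-fold. Egr2 and Egr3, transcription factors induced by NFAT that drive negative regulators of the receptor, rose 2.16-fold and 2.82-fold. Egr3 was at 26.2, 18.4, 20.4, 20.1 and 24.5 CPM against 4.97, 7.75, 7.17, 12.6 and 8.30 CPM with no overlap, whereas Egr2 overlapped through the B cell-rich library of each group. Cblb, a ubiquitin ligase that targets signalling proteins, was at 344, 340, 207, 211 and 161 CPM against 110, 145, 135, 182 and 152 CPM. It was called (log2 change 0.80, adjusted p = 0.0241), but the groups overlapped, the log2 change was 1.19 in batch 1 and 0.16 in batch 2, and the call was lost without any 1 of 5 libraries of batch 1, pGal 1 and 2 and saline 1, 2 and 3 (adjusted p from 0.00791 to 0.0714 over the leave-outs). It was also lost with replicate numbers as a block.

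Among costimulatory receptors and ligands 9 of 20 rose and 1 fell (median 0.54; 10 and 3 without the B cell-rich libraries). Icos, a receptor of the CD28 family, was at 142, 168, 90.0, 186 and 163 CPM against 58.2, 49.1, 55.6, 37.1 and 44.2 CPM (log2 change 1.61, SE 0.25, adjusted p = 0.00112). Slamf6, a self-binding receptor, rose 2.70-fold from 205 ± 51.3 to 555 ± 111 CPM. Tnfsf11, which encodes RANKL, a signal to dendritic cells and bone cells, rose 4.44-fold with no overlap between the groups. Cd86, better known as a CD28 ligand on presenting cells, was at 36.4, 43.5, 53.8, 66.9 and 56.3 CPM against 11.0, 5.78, 8.39, 15.5 and 9.62 CPM. B cells carry it too, and without the B cell-rich libraries its log2 change was 2.35, against 2.37 with them. Tnfrsf25, a receptor of the TNF family, was the 1 that fell (log2 change -0.75, adjusted p = 0.00582).

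Of 27 genes of the receptor complex and its first signalling steps, 3 rose and 2 fell (18.5% called, against 11.7% of all genes; median 0.10). Csk, the kinase that holds Lck inactive, rose 1.43-fold (log2 change 0.52, adjusted p = 0.0104), and Sla, an adaptor that lowers surface receptor, 1.44-fold (log2 change 0.52, adjusted p = 0.00346). The Sla call was lost without the batch term. The phosphatase Ptpn22 also rose, and the adaptor Sit1 fell. Of 21 genes of the early response to receptor engagement, 3 rose and 3 fell and the median was -0.36. Those that rose were Egr2, Egr3 and Irf4, and those that fell were Junb, Jund and Ier2. Junb, a component of AP-1, fell from 4850, 3390, 3540, 4160 and 2330 CPM to 808, 1130, 1680, 2060 and 1660 CPM (log2 change -1.32, SE 0.30, adjusted p = 0.0124). Ier2, an immediate early gene, fell 2.15-fold, and Nr4a1 (Nur77) stood at 143 to 337 CPM against 244 to 406 CPM (log2 change -0.31, adjusted p = 0.451). Junb and Ier2 respond also to handling of cells, and the part of the sort in their level was not tested. Of 18 heat shock and sorting stress genes, 1 rose and 3 fell (22.2% called, against 11.7% of all genes, median -0.34), Junb among them. The chaperone genes Dnajb1 and Dnaja1 fell 2.13-fold and 1.60-fold, and the stress gene Ddit4 rose 2.37-fold. Of this stress list 1 gene rose and 6 fell without the B cell-rich libraries (median -0.438).

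Feedback inhibitors of the ERK pathway were mixed as a list (3 of 14 rose and 1 fell, median -0.11), and the 3 that rose are all brakes on ERK, as is Dusp5, the 1 that fell. Dusp6, the phosphatase that removes phosphate from ERK in the cytoplasm, stood at 130, 115, 117, 192 and 186 CPM after pGal-OVA and 43.9, 42.3, 29.4, 60.7 and 56.7 CPM after saline. All pGal values exceeded all saline values (3.17-fold, log2 change 1.66, SE 0.12, adjusted p = 5.94e-06). Spry1, a Sprouty protein that blocks the pathway near its receptor, rose 7.75-fold (log2 change 2.96, adjusted p = 0.000154). Dusp4, a nuclear ERK phosphatase, rose 4.54-fold (log2 change 2.18, adjusted p = 0.00124). Of 12 genes of G protein signalling regulation, 4 rose and 2 fell (median 0.55, or 0.229 without the B cell-rich libraries). Rgs1, which limits chemokine receptor signals, rose 2.71-fold from 20.0 to 37.0 CPM to 52.9 to 155 CPM, and Rgs3 rose 2.53-fold. Rgs10 was the other that rose beside Gng2, and Rgs2 and Rgs12 fell. Rgs11, which fell further, is not on this list.

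Transcription factors known from chronically stimulated T cells showed the largest share of calls of the functional lists: 9 of 17 rose and 1, Prdm1, fell (median 0.88; 10 and 1 without the B cell-rich libraries). The lists were chosen with earlier results of these data known, so the ranking only describes them. Tox2, Maf and Ikzf2 are also on lists described below. Nfatc1, a calcium-regulated factor, was at 711, 705, 564, 696 and 599 CPM against 350, 324, 327, 367 and 281 CPM and rose, with a change of 0.98 in batch 1 and 1.00 in batch 2. Its adjusted p was 8.62e-05. Tox2 rose 7.64-fold, with 18.1, 23.4, 11.7, 36.6 and 35.1 CPM against 5.72, 1.63, 3.53, 2.15 and 2.64 CPM (log2 change 2.93, SE 0.39, adjusted p = 0.000417). Tox was called at a smaller change (log2 change 0.88, adjusted p = 0.0246), but the lowest pGal library, the B cell-rich one at 119 CPM, fell within the saline values. The Tox call was lost in 9 of the 10 fits without 1 library, all but the one without that pGal library (adjusted p from 0.00706 to 0.0733), with the replicate block and in batch 1 alone. Without the B cell-rich libraries the adjusted p was 3.7e-05. Maf, which drives Il21 and Il10, rose 3.26-fold, from 2.57 to 9.29 CPM to 14.3 to 24.0 CPM. Ikzf2 (Helios), a factor of regulatory and tolerant T cells, rose 5.53-fold (log2 change 2.47, adjusted p = 0.00147). Irf4, which scales with receptor signal strength, was at 61.2, 56.9, 92.4, 84.9 and 75.2 CPM against 14.6, 16.0, 16.3, 40.1 and 21.7 CPM. The saline library 1 of batch 2, rich in B cell transcripts, was the highest of its group, and the log2 change was 1.90 with and 1.85 without the B cell-rich libraries. Eomes, a T-box factor, rose 3.45-fold but not in batch 1 alone.

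T follicular helper cells assist B cells in follicles, and 8 of 19 genes of this program rose and 0 fell, with a median log2 change of 1.10 (11 and 1, median 1.07, without the B cell-rich libraries). Of the 8, Cd200, Slamf6, Tox2, Icos, Maf and Pdcd1 are on lists described above. Cxcr5, the receptor that leads cells to follicles, was at 67.0, 72.8, 145, 125 and 138 CPM against 10.8, 5.36, 8.81, 37.7 and 11.2 CPM. B cells express it strongly, and both B cell-rich libraries, the third pGal value and the fourth saline value, are the highest of their group. Without them the log2 change was 3.21 (adjusted p = 2.51e-06), against 3.13 (SE 0.45, adjusted p = 0.000858) with them. P2rx7, an ATP-gated channel, was at 100, 76.4, 49.8, 99.8 and 77.3 CPM against 11.9, 13.5, 13.4, 15.0 and 18.8 CPM (log2 change 2.48, SE 0.20, adjusted p = 1.05e-05). Bcl6, the defining repressor of the program, was at 25.4, 26.8, 48.3, 40.6 and 29.9 CPM against 19.5, 15.3, 13.2, 37.3 and 31.9 CPM. Its groups overlapped and it did not pass (log2 change 0.70, adjusted p = 0.145).

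Of 21 genes of regulatory T cells, 6 rose and 0 fell (median 0.47), or 7 and 2 without the B cell-rich libraries (median 0.176). Foxp3, which defines that lineage, did not pass, at 16.5, 17.5, 22.9, 41.3 and 29.3 CPM against 22.8, 12.5, 17.4, 18.8 and 24.5 CPM (log2 change 0.35, SE 0.23, adjusted p = 0.379). Il2ra (CD25), the high-affinity subunit of the IL-2 receptor, did not pass either, with pGal values of 21.9, 20.5, 21.0, 63.4 and 30.6 CPM and saline values of 19.0, 16.7, 19.2, 25.2 and 26.1 CPM. The pGal library 1 of batch 2 stood alone at 63.4 CPM. The genes that rose were Ctla4, Nrp1, Izumo1r, Ikzf2, Ebi3 and the actin-capping gene Capg, of which Ctla4, Nrp1 and Izumo1r are also known from activated or anergic CD4 cells. Ebi3, a subunit of the cytokines IL-27 and IL-35, rose 7.51-fold (log2 change 2.91, adjusted p = 0.00282). For type 1 regulatory cells, defined by Il10, the list gave 6 risen and 1 fallen of 14 (median 1.02), but Il10 itself was at most 0.252 CPM in every library.

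Of 18 lineage factors, 4 rose and 0 fell (22.2% called, against 11.7% of all genes, median 0.46; 6 and 1 without the B cell-rich libraries). Tbx21 (T-bet, Th1) was at 3.88, 4.36, 30.2, 11.8 and 15.3 CPM against 9.75, 7.26, 9.44, 11.2 and 8.67 CPM (log2 change 0.51, adjusted p = 0.621). Its highest pGal value came from the B cell-rich library, and without those libraries the log2 change was -0.36 (adjusted p = 0.565). Gata3 (Th2) was at 84.1 to 135 CPM against 73.8 to 109 CPM (log2 change 0.29, adjusted p = 0.374). Stat4, which carries IL-12 signals, rose 1.45-fold (log2 change 0.54, adjusted p = 0.00628), though not in batch 1 alone, and Hif1a, the oxygen-sensing factor, 1.58-fold (log2 change 0.66, adjusted p = 0.00987). The inhibitor of E proteins Id3 and the Runt factor Runx3 were the others that rose.

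**Figure D4:**
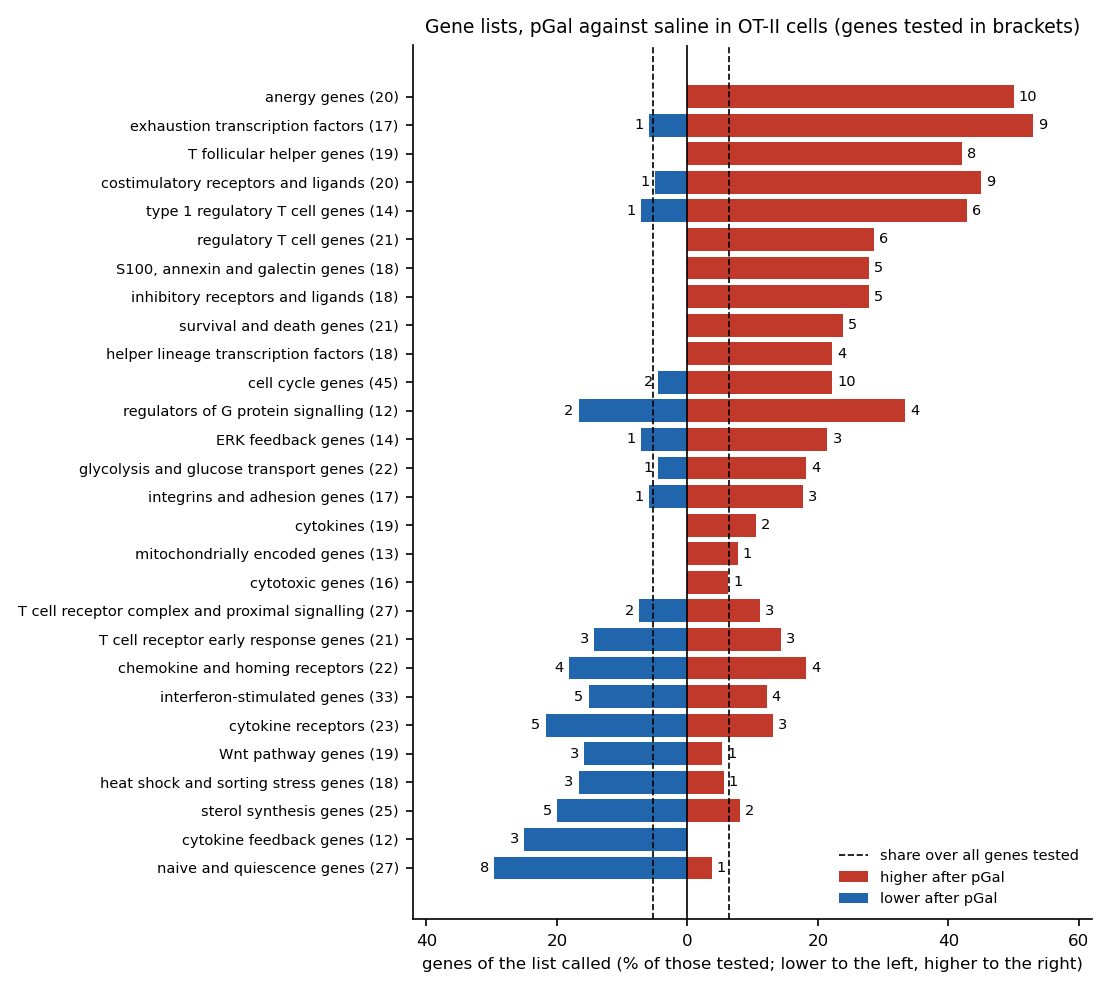
Share of the tested genes of each functional list that rose (bars to the right) or fell (bars to the left) in OT-II cells after pGal-OVA against saline, in percent, with the number of genes at each bar and dashed lines at the shares over all genes tested (6.38% and 5.34%). Exhaustion factors (9 of 17), anergy genes (10 of 20) and costimulatory genes (9 of 20) hold the largest shares of raised genes, and naive genes (8 of 27) and cytokine receptors (5 of 23) include several that fell. The lists were chosen with earlier results of these data known, and some share genes.

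Cytokine genes numbered 25, of which 19 were tested, 2 rose and 0 fell. The share called (10.5%) was near the 11.7% of all genes. Il2, the T cell growth factor, was at 6.31, 3.77, 2.48, 8.91 and 6.22 CPM after pGal-OVA and 0.308, 0.354, 0.567, 0.196 and 1.57 CPM after saline. The level stayed low but the groups did not overlap (9.39-fold, log2 change 3.23, SE 0.64, adjusted p = 0.00532), and the log2 change was 3.91 without the saline library 2 of batch 2. Tgfb1, an inhibitory cytokine, rose 1.59-fold (log2 change 0.67, adjusted p = 0.00698). Effector cytokines were scarce in all 10 libraries, with Ifng at 0.842 to 4.92 CPM after pGal-OVA and 1.66 to 2.54 CPM after saline, Il4 at most 0.906 CPM and Il21 at most 2.79 CPM. Cytokine receptors split, with 3 of 23 risen and 5 fallen (median 0.00; 7 and 6 without the B cell-rich libraries). Il2rb, the signalling subunit shared by the IL-2 and IL-15 receptors, was at 421, 403, 376, 602 and 487 CPM against 101, 64.0, 79.8, 98.0 and 88.0 CPM. The separation was wide in both batches (5.22-fold, log2 change 2.38, SE 0.19, adjusted p = 1.05e-05). Il7r, the receptor for the survival cytokine IL-7, moved the other way, at 146, 111, 95.9, 82.2 and 76.7 CPM against 250, 272, 283, 241 and 274 CPM. All pGal values lay below all saline values (log2 change -1.40, SE 0.13, adjusted p = 2.98e-05). Il18r1, a receptor that amplifies interferon production, fell 3.66-fold, and Ifngr2, a subunit of the interferon gamma receptor, 2.04-fold, whereas the type I receptor subunit Ifnar2 rose 1.68-fold. Il12rb1 was the other that rose, and Il4ra and Il21r the others that fell. Cytokine feedback genes fell where they were called, 3 of 12 (median -0.44; 5 without the B cell-rich libraries). Socs3, which blocks signalling by IL-6 family receptors, was at 87.0, 97.5, 123, 56.2 and 40.1 CPM against 388, 183, 194, 151 and 129 CPM. The saline library 1 of batch 1 was far above the rest, and the groups did not overlap even apart from it (log2 change -1.41, adjusted p = 0.000755). Socs1, an inhibitor of JAK kinases, fell 1.92-fold with 1 saline library, at 43.1 CPM, within the pGal range, and the phosphatase Ptpn2 was the third that fell.

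Chemokine and homing receptors also split, 4 of 22 up and 4 down (median 0.34). Leaving out the B cell-rich libraries, 5 were up and 4 down and the median was -0.15. Beside Cxcr5, the skin-homing receptor Ccr10 rose from 0.371 to 1.98 CPM to 6.08 to 16.9 CPM (log2 change 3.32, adjusted p = 0.000754). Beside Ccr9, Gpr183 (EBI2), which guides cells by oxysterols, fell 1.75-fold with pGal values of 145, 142, 163, 128 and 132 CPM and saline values of 247, 263, 317, 193 and 232 CPM. S1pr1, required to leave lymphoid tissue, fell from 985, 926, 1080, 871 and 886 CPM to 688, 721, 597, 553 and 612 CPM. The fall was small but all 5 pGal values lay below all 5 saline values (log2 change -0.58, SE 0.10, adjusted p = 0.00163). Ccr4 and Ccr8 also rose and Cxcr4 also fell. Ccr7, which brings naive cells into lymph nodes, did not pass, at 795 to 965 against 844 to 1270 CPM. Of 17 integrin and adhesion genes 3 rose and 1 fell (23.5% called, against 11.7% of all genes, median 0.27). Cd44, the hyaluronan receptor that marks antigen-experienced cells, was at 201, 191, 184, 266 and 198 CPM against 72.2, 61.9, 57.7, 59.7 and 88.9 CPM (3.05-fold, log2 change 1.61, SE 0.13, adjusted p = 1.05e-05). Itgb1, the beta 1 integrin, rose 2.63-fold and Itgal, the alpha chain of LFA-1, 1.75-fold, while Icam2, an LFA-1 ligand, fell (log2 change -0.59). The integrin and adhesion list had 4 risen and 3 fallen without the B cell-rich libraries (median 0.188).

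Of 27 genes of naive and quiescent cells, 8 fell and 1 rose (median -0.25; 11 and 1 without the B cell-rich libraries). Dntt, Ly6c1, Il7r, Socs3 and S1pr1 were among them, and Dapl1 was the 1 that rose. Satb1, a chromatin organiser of naive T cells, was at 694, 710, 571, 593 and 529 CPM against 1220, 1330, 1250, 1260 and 1230 CPM, with no overlap (log2 change -1.03, SE 0.16, adjusted p = 0.00105). The factors Tcf7 and Lef1, which maintain the naive and memory states, did not pass: Tcf7 stood at 2870, 2820, 1830, 3010 and 2770 CPM against 2690, 2290, 2510, 2280 and 2510 CPM and Lef1 at 513, 511, 338, 520 and 449 CPM against 651, 712, 698, 555 and 609 CPM. The lowest pGal value of Tcf7 came from the B cell-rich library, and its other pGal values lay above every saline value. The groups of Lef1 did not overlap although its adjusted p was 0.205. Lef1 was called lower without the B cell-rich libraries (log2 change -0.38, adjusted p = 0.014). The Wnt pathway, which acts through Tcf7 and Lef1, had 1 gene of 19 that rose, Wnt10a, and 3 that fell. That was 21.1% called, against 11.7% of all genes, with a median of -0.09. The median was -0.341 without the B cell-rich libraries, with 1 risen and 3 fallen. Wnt5b, a ligand of the noncanonical branch, fell from 6.15 to 9.96 CPM to 0.421 to 1.07 CPM (10.9-fold, log2 change -3.45, adjusted p = 0.000291). The signal transducer Dvl1 and the co-receptor Lrp6 had log2 changes of -0.48 and -0.57 with overlapping groups, and both calls were lost without the batch term and in batch 1 alone.

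Of 45 cell cycle genes 10 rose and 2 fell (26.7% called, against 11.7% of all genes), and the median was 1.08, or 0.54 without the B cell-rich libraries (9 and 2 called). Mki67, the marker of dividing cells, was at 12.7, 14.5, 15.4, 54.2 and 18.7 CPM after pGal-OVA and 5.30, 0.606, 1.57, 7.30 and 7.56 CPM after saline. The pGal library 1 of batch 2 was far above its group, and the groups did not overlap (log2 change 2.43, SE 0.47, adjusted p = 0.00474). Without that library the log2 change of Mki67 was 2.22 (adjusted p = 0.0178). Top2a, the DNA topoisomerase of replicating cells, was at 35.8, 27.7, 26.8, 65.3 and 33.7 CPM against 8.44, 4.55, 6.98, 6.49 and 13.1 CPM (log2 change 2.23, adjusted p = 0.000236). Cdkn2c, an inhibitor of cell cycle kinases, rose 3.14-fold. Kif11, a mitotic motor, was called (log2 change 2.17, adjusted p = 0.0134) but not without the B cell-rich libraries (adjusted p = 0.0523). In batch 1 alone Mki67 and Kif11 were not called. Survival and death genes gave 5 risen and 0 fallen of 21 (23.8% called, against 11.7% of all genes, median 0.21). Casp4, an inflammatory caspase, rose 7.96-fold and the BCL2 relatives Bcl2a1b and Bcl2a1d 4.28-fold and 5.28-fold, with the reservation that these paralogs share nearly identical sequence. Bad, which promotes cell death, rose too. The survival and death list gave 5 risen and 3 fallen without the B cell-rich libraries (median 0.175). Of 18 S100, annexin and galectin genes, 5 rose and 0 fell (median 0.69). Their median was 0.273 without the B cell-rich libraries, with 7 risen and 1 fallen. Vim, the intermediate filament vimentin, rose 1.71-fold, the lectin Lgals1 1.93-fold and S100a10 1.70-fold, each without overlap, and Anxa6 rose as well. Anxa2, the membrane-binding partner of S100a10, was at 51.2, 50.9, 143, 124 and 95.1 CPM against 40.7, 21.1, 25.3, 28.6 and 34.8 CPM and its log2 change was 1.60, or 1.11 without the B cell-rich libraries. It was not called in batch 1 alone.

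Of 22 glycolysis genes 4 rose and 1 fell (22.7% called, against 11.7% of all genes; median 0.17). Pfkp, a phosphofructokinase, rose 1.51-fold, and Gapdh, Gpi1 and Pgam1 were the others that rose. Pdk1, a kinase that inhibits pyruvate dehydrogenase, fell 2.00-fold with values of 244, 221, 176, 254 and 229 CPM against 420, 428, 427, 478 and 495 CPM. The glycolysis list had 3 risen and 4 fallen without the B cell-rich libraries (median 0.155). Of 25 sterol synthesis genes 2 rose and 5 fell (28.0% called; median -0.20; 1 and 7 without the B cell-rich libraries). Acat2, which makes the first intermediate of the pathway, fell 1.56-fold, the squalene epoxidase Sqle 2.01-fold and the lanosterol synthase Lss 1.65-fold. Fdps also fell, and Tm7sf2 and Ebp rose. Interferon-stimulated genes moved both ways, 4 of 33 up and 5 down (median 0.05). The antiviral genes Oas1a and Isg15 rose 2.08-fold and 2.00-fold, Isg15 not in batch 1 alone. The guanylate-binding proteins Gbp2 and Gbp7, known as targets of interferon gamma, fell 1.74-fold and 1.83-fold, with Gbp7 at 96.7, 102, 86.4, 99.7 and 96.0 CPM against 174, 193, 191, 157 and 170 CPM. Oas3 and Isg20 were the others that rose, and Ifit2, Ifit1bl1 and Igtp the others that fell.

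Plain OVA was measured in 4 OT-II libraries of the same experiment. Library 2 of batch 2 among them held 1390 CPM of Cd79a and 118 CPM of Cd8a, and neither comparison with OVA was fitted without it. The comparisons of pGal with OVA and of OVA with saline share the pGal and the saline libraries with the results above, so they are given side by side and are not independent of them. pGal differed from OVA in 265 genes (1.87%), above it in 158 (1.12%) and below it in 107 (0.757%). OVA differed from saline in 23 genes (0.163%), above it in 22 (0.156%) and below it in 1 (0.00707%). With 4 OVA libraries, 1 of them rich in B cell transcripts, this count is not on the same footing as the 1657 for pGal. Of those 1657 genes, 1539 had an OVA change from saline of the same sign, an agreement that the shared saline libraries favour. For Wnt10a the OVA libraries were at 7.19, 11.5, 18.1 and 4.61 CPM, the log2 difference of pGal from OVA was 2.80 (adjusted p = 0.0105) and that of OVA from saline 2.89 (adjusted p = 0.0277). This gene was called in all 3 comparisons, in steps. Endod1, Chst2, Il2rb, Dusp6 and P2rx7 were likewise called in each, with OVA above saline by 0.83 (adjusted p = 0.0237) for Dusp6 and by 1.39 (adjusted p = 0.0146) for Il2rb. Dntt was at 65.4, 58.0, 43.2 and 11.5 CPM in the OVA libraries, and its log2 difference was -3.58 (adjusted p = 0.00223) for pGal from OVA and -0.75 (adjusted p = 0.725) for OVA from saline. The lowest of those OVA values came from the B cell-rich library, in which Cd4 was only 248 CPM. Nrp1 was at 31.8, 27.7, 24.9 and 29.4 CPM with OVA, a difference of -0.03 (adjusted p = 0.981) from saline, whereas pGal stood 1.75 (adjusted p = 0.00136) above OVA. Ctla4 was called over OVA, at 1.91 (adjusted p = 0.00796), and OVA differed from saline by 1.30 (adjusted p = 0.122). For Cxcr5, Cd86, Eomes and Top2a the step from saline to OVA was called and that from OVA to pGal was not. B cells express Cxcr5 and Cd86, and Eomes is among the natural killer cell markers used here. The part of the B cell-rich OVA library in these steps was not tested. The OVA libraries had 50.5, 51.6, 100 and 295 CPM of Cxcr5, 2.87 (adjusted p = 0.0322) above saline, and pGal differed from OVA by 0.26 (adjusted p = 0.899). The highest of these was again the B cell-rich library. For Mki67 the differences were 0.04 (adjusted p = 0.99) for pGal from OVA and 2.39 (adjusted p = 0.103) for OVA from saline.

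OT-I cells, CD8 T cells with a receptor for another ovalbumin peptide, were transferred into the same mice, so a library of OT-I and one of OT-II cells with the same treatment, batch and number may come from the same pool of mice. Fitted with all 29 prophylactic libraries, OT-I cells had 164 of 14859 genes called (1.1%; 143 higher, 0.962%, and 21 lower, 0.141%). The OT-I pGal library 2 and OVA library 1 of batch 1 held 197 and 164 CPM of Cd4, against at most 40.0 CPM in the other OT-I libraries. The test of the difference itself, the OT-II change minus the OT-I change, called 182 genes (1.22%; 172 without those OT-I libraries), 113 more positive in OT-II cells (0.76%) and 69 more negative (0.464%). The count was 140, of which 111 were among the 182, with same-numbered OT-I and OT-II libraries as a block. It was 102 with replicate numbers as a block within each cell type. It was 354 without the B cell-rich libraries, which here include the OT-I saline library 1 of batch 2 (315 CPM of Cd79a). Of the 131 genes with a change given in this account, 35 differed, and 27 of them also with OT-I and OT-II libraries as a block. Grhl1, Satb1, Gbp2, P2rx7, Zfp821, Kcnh3, Slc16a5 and Tigit did not pass there (adjusted p from 0.0503 to 0.166). Ppic, a cyclophilin, was at 41.9, 49.5, 23.0, 65.1 and 56.7 CPM after pGal-OVA and 4.14, 3.39, 2.55, 2.21 and 10.3 CPM after saline in OT-II cells. In OT-I cells it was at 26.3 ± 4.45 against 26.6 ± 4.64 CPM (SD, n = 5 each). The log2 difference between the changes was 3.42 (SE 0.42, adjusted p = 0.000116). Cpq, a secreted carboxypeptidase, was similar in this respect, with 6.36 ± 1.49 against 6.01 ± 1.75 CPM in OT-I cells and a difference of 2.68 (SE 0.36, adjusted p = 0.000285). Dusp6 rose 3.17-fold in OT-II cells and had a log2 change of 0.30 in OT-I cells, a difference of 1.35 (SE 0.15, adjusted p = 5.1e-05). Il2rb rose in both, from 556 ± 38.7 to 1010 ± 379 CPM in OT-I cells, with the larger change in OT-II cells, a difference of 1.56 (SE 0.27, adjusted p = 0.00335). Nfatc1 differed by 0.78 (SE 0.14, adjusted p = 0.00341) and Endod1 by 2.22 (SE 0.50, adjusted p = 0.0239).

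Other genes differed in the opposite direction. Dntt was at 4.34 ± 1.04 CPM in OT-I cells after saline and 2.23 ± 1.31 CPM after pGal-OVA, far under its saline level in OT-II cells, and the difference was -3.08 (SE 0.72, adjusted p = 0.0288). Gpr183 fell in OT-II cells and was at 124 ± 20.6 against 101 ± 12.2 CPM in OT-I cells, a difference of -1.13 (SE 0.19, adjusted p = 0.00229). The predicted gene 1700025G04Rik fell from 16.2 to 22.6 to 5.33 to 9.39 CPM in OT-II cells, with a difference of -1.98 (SE 0.26, adjusted p = 0.000263). Gzmk, a granzyme, was at most 1.91 CPM in every OT-II pGal library and reached 18.1 ± 19.3 CPM in OT-I cells after pGal-OVA (-3.69 (SE 0.85, adjusted p = 0.0256)). Tigit differed by -2.46 (SE 0.57, adjusted p = 0.0272). For Izumo1r, Nrp1, Ctla4, Lag3 and Cd44 no difference between the cell types was called: it was -0.15 (SE 0.64, adjusted p = 0.964) for Izumo1r, 0.02 (SE 0.48, adjusted p = 0.996) for Nrp1 and 0.41 (SE 0.45, adjusted p = 0.802) for Ctla4. Their log2 changes in OT-I cells were 3.02, 1.70 and 2.79. These changes include the OT-I pGal library 2 of batch 1, which held 197 CPM of Cd4. The part of RNA from CD4 cells in them was not tested.

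The change was also compared between the 2 batches within OT-II cells. No gene was called for a difference between batches by edgeR (1966 of 14142 had an unadjusted p under 0.05), limma voom also called 0 and the DESeq2 Wald test called 384. Without the B cell-rich libraries edgeR called 278. Ctla4 changed by 2.90 in batch 1 and 3.68 in batch 2, Izumo1r by 2.78 in batch 1 and 3.00 in batch 2 and Dntt by -4.66 in batch 1 and -3.98 in batch 2. Btla (1.14 in batch 1 and 0.51 in batch 2), Tgfb1 (0.86 in batch 1 and 0.36 in batch 2) and Junb (-1.70 in batch 1 and -0.80 in batch 2) had their larger change in batch 1, and Kif11 (1.65 in batch 1 and 3.06 in batch 2) and Tox2 (2.29 in batch 1 and 3.90 in batch 2) in batch 2. None of these differences was called.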

How the data were processed

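The authors deposited RNA-seq of sorted OT-II cells as estimated counts for protein-coding genes, in whole numbers. The submitters' processing notes name bcl2fastq, kallisto 0.46.1 and the GRCm38 build. How transcripts were summed to genes is not stated in the labels. Groups and batches follow the labels. The 14 prophylactic OT-II libraries (5 pGal, 5 saline and 4 OVA) entered 1 fit with robust edgeR 4.0.16, after filterByExpr and TMM scaling (quasi-likelihood, R 4.3.3; terms for treatment and batch), and p-values were adjusted by Benjamini-Hochberg over all 14142 genes. The standard error is the log2 change over the square root of F. The fit was also run on simulated counts with known changes. Those counts held no batch difference and no B cell-rich library, so that run does not bear on either. The comparison with OT-I cells used all 29 prophylactic libraries, with terms for batch and for cell type by batch. Coordinates are from GENCODE M21 (21806 of 21900 identifiers), and promoters from RefSeq (11062 of the 14142 tested genes had one).

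Named genes were the 15 highest and 15 lowest changes among called genes with at least 10 CPM in the higher group, the 5 smallest p in each direction, up to 5 called members per list, a panel of 41 genes and 5 per direction of the OT-I difference. A few genes that this rule names are not reported here. Genes named without values, to complete a list's count, were picked after their values were seen. The members and the 36 lists (28 functional and 8 of markers) were chosen with earlier results of these data known. Marker sums were compared on log2 of summed CPM plus 0.1 by exact permutation within batches. Alternatives covered filters, scaling, DESeq2 1.42.0, limma 3.58.1 (voom), the batch term, a replicate block, each batch alone, thresholds, the B cell-rich libraries (Cd79a above 100 CPM) and each library left out. Since PCR copies cannot be told from separate molecules here, precision was taken from the spread between libraries. Same-numbered pGal and saline libraries did not deviate together (r across genes of -0.481, 0.263 and -0.343 in batch 1 and 0.116 and 0.116 in batch 2), so the numbers were not used to pair them. Between same-numbered OT-I and OT-II libraries r was 0.0995 to 0.244 after saline and -0.119 to 0.0453 after pGal-OVA. Each saline value was above those of the same OT-II library with other numbers. The fit that called 182 genes did not use this pairing, unlike the block fit that called 140. In batch 2, with 2 libraries per group, the 2 values of r in each comparison are equal by construction.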

Additional observations from a re-analysis of the deposited data

Results flagged for a closer look

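In 36 of 278 groups of 5 libraries, 1 library stood far from the other 4. Its gap was over 0.71 of the group's range by Dixon's ratio. The chance rate of about 1 in 20 for this cutoff assumes 5 values from 1 normal distribution. These groups pool both batches and hold CPM of selected genes, so the 36 cannot be read against that rate. The pGal library 3 of batch 1 accounted for 12 of the 36 groups. Its summed markers were the highest of its group for B cells (18500 CPM), myeloid and dendritic cells (3350 CPM), natural killer cells (439 CPM), the CD8 lineage (617 CPM) and gamma-delta T cells (147 CPM, over the 3 of 7 genes of that list in the tables, of which Blk is also a B cell gene). The same library was highest for Ccr9 (19.4 CPM), Sqle (28.8 CPM), Prdm1 (7.09 CPM) and Tigit (2.62 CPM), and lowest for Pfkp (243 CPM), Tcf7 (1830 CPM) and Tox (119 CPM). The part of other cells' RNA in these gene levels was not tested.

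The pGal library 1 of batch 2 stood apart in 6 groups, with the highest Mki67 (54.2 CPM), Top2a (65.3 CPM), Kif11 (19.7 CPM), Il2ra (63.4 CPM) and Cd44 (266 CPM) and the lowest Pxylp1 (13.4 CPM). The pGal library 2 of batch 2 had the lowest Btla (89.4 CPM) and the highest Oas1a (88.6 CPM). Among the saline libraries, library 1 of batch 1 had the highest Olfr545 (48.1 CPM) and Socs3 (388 CPM). The B cell-rich saline library 1 of batch 2 had the highest summed B cell markers (3610 CPM), Cxcr5 (37.7 CPM), Irf4 (40.1 CPM), Tgfb1 (138 CPM), Tnfsf4 (3.24 CPM) and Wnt10a (3.19 CPM), and the lowest Lss (21.9 CPM) and S100a10 (142 CPM). The saline library 2 of batch 2 had the highest Ampd1 (32.5 CPM), Il2 (1.57 CPM), Ppic (10.3 CPM), Sla (293 CPM), Slamf6 (296 CPM) and Slc9b2 (5.25 CPM).

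The change after pGal-OVA differed between OT-II and OT-I cells in 35 of the named genes, by the test of that difference. On the log2 scale the OT-II change minus the OT-I change was positive for 18 of them: 3.42 for Ppic, 3.35 for Gm2237, 3.11 for Synpo, 2.96 for Grhl1, 2.68 for Cpq, 2.36 for Tns1, 2.22 for Endod1, 1.56 for Il2rb, 1.53 for Zfp821, 1.35 for Dusp6, 1.24 for P2rx7, 1.08 for Gng2, 1.03 for Prr13, 0.92 for Lrmp, 0.90 for Ubash3b, 0.88 for Rgs3, 0.78 for Nfatc1 and 0.67 for Vim. It was negative for 17: -3.69 for Gzmk, -3.08 for Dntt, -3.05 for Myo6, -2.46 for Tigit, -1.99 for Kcnh3, -1.98 for 1700025G04Rik, -1.90 for Enpp4, -1.90 for Gtf2ird1, -1.80 for Slc16a5, -1.55 for Pxylp1, -1.44 for Rgs11, -1.37 for Il18r1, -1.13 for Gpr183, -1.11 for Gramd3, -0.75 for Satb1, -0.63 for Gbp7 and -0.55 for Gbp2. In OT-I cells the log2 change was 0.07 for Cpq, -0.02 for Ppic and 1.18 for Synpo, none of them called, while Gzmk rose there by 3.58 (edgeR adjusted p = 0.00373).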

How the results depend on the processing

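Against saline, 1657 genes were called, and counts under the other filters, scalings and fits lay between 1168 and 2069, apart from 2490 with the DESeq2 Wald test, 694 at an adjusted p under 0.01, 553 with at least a 2-fold change and 0 in batch 2 alone (2 against 2). Leaving out 1 library at a time gave 1147 to 1664. The same-numbered libraries were not paired by the labels, and a fit with the replicate number as a block called 1168, of which 1148 were among the 1657. For the difference between OT-II and OT-I cells 182 genes were called, 407 by DESeq2 and 102 with the replicate block within cell types. A block over same-numbered OT-I and OT-II libraries (chosen after seeing the data) gave 140. Leaving out the B cell-rich libraries of both cell types gave 354. For the difference between batches 0 were called, 384 by DESeq2 and 278 without the B cell-rich libraries. Of 131 genes with a change in the text, 119 were called, and 102 were called in all fits other than batch 2 alone. In the fit without the B cell-rich libraries 3 of the genes not called passed the threshold. None of the 119 turned its direction in the fits run, which share libraries with the main fit. Of the others, Ccr7 was 0.081 and Gzmk 0.558 in batch 2 alone, Tcf7 -0.018 in batch 1 alone, Tbx21 -0.361 without the B cell-rich libraries, and with 1 library left out Gzmk lay between -0.373 and 0.208 (0.151 without pGal library 1 of batch 1) and Tbx21 between -0.443 and 0.715. Summed marker differences turned negative without the B cell-rich libraries for B cells (-0.432), myeloid cells (-0.527) and the CD8 lineage (-0.176), and as a mean of log2 levels for the CD4 (-0.107) and CD8 (-0.138) lineages. The cause of these shifts was not tested. Low counts limit genes such as Lag3 and Il2, which stayed under 10 CPM.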

Other observations

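Among cytotoxic genes, typical of CD8 and natural killer cells, 1 of 16 was called in OT-II cells, higher after pGal-OVA. That share, 6.25%, was under the 11.7% of all genes, and the median log2 change of the list was 0.32. Without the B cell-rich libraries 1 was higher, 2 were lower and the median was -0.63. Mitochondrially encoded genes all had a positive log2 change (13 of 13, median 0.47), against 7626 of the 14142 genes tested. Only 1 of the 13 was called (7.69%, against 11.7% of all genes). The genes of smallest p among those that fell included Gramd3, a GRAM-domain protein, at 160, 143, 146, 119 and 103 CPM after pGal-OVA and 289, 277, 312, 210 and 228 CPM after saline. Pxylp1, a phosphatase acting on xylose in proteoglycan synthesis, was at 17.1, 18.2, 16.9, 13.4 and 18.2 CPM against 69.6, 68.6, 71.2, 52.3 and 35.9 CPM. In both genes every pGal value lay below every saline value.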
